A study of Mus musculus with 19 samples.

Results

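Gzme-expressing fibroblasts were 267 of the 9337 cells with Pdgfra transcripts in the injured hindlimbs of mice, among 39541 cells in the whole series. They were selected on their own counts in 12 libraries: at least 1 unique molecular identifier (UMI, 1 counted transcript molecule) of Pdgfra, the receptor that marks fibroblasts and mesenchymal progenitors, at least 2 of Gzme, none of Pi16 and at most 1 of Ptprc, the pan-leukocyte gene also called CD45, in a cell with 500 genes or more and no more than 25% of UMIs from mitochondrial genes. Cells with Pdgfra that passed the same Ptprc limit are called Pdgfra cells here. The 8475 of them with no Gzme UMI, whatever their Pi16 count, were the comparison cells, and each library's members were set against its own comparison cells. Because the cells were picked by Gzme, the level of Gzme in them is a description, and neither the other granzymes of its gene cluster nor Sfrp1 and Ptx3, which went into the label of the population, were tested against the comparison cells.

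The cells came from a mouse model of trauma-induced heterotopic ossification, bone formed in soft tissue after injury. Mice received a partial-thickness burn on the back together with transection of the Achilles tendon, and the tendon site was digested for droplet single-cell RNA sequencing before injury (day 0, 4 libraries) and at day 3 (3 libraries), day 7 (4 libraries) and day 21 (4 libraries). A further 4 libraries came from injured mice given p7N3, a peptide that activates CD47, a surface protein that dampens phagocytosis through SIRPα on macrophages. The labels of these libraries give 10 mg/kg for 3 days before and after injury. They are compared with the day 7 libraries, although the label of the fourth gives no harvest day and no vehicle is named in the labels of the day 7 libraries. The study describes phosphate-buffered saline controls for p7N3 and, apart from them, a day 7 time point, without saying which the day 7 libraries are. The labels name C57 mice and LysmCre/Tgfb1fx/fx mice, in which a myeloid Cre driver removes floxed Tgfb1, for the series as a whole and give no genotype for a single library, and the methods describe young adult male C57BL/6J mice. The labels of the libraries numbered 4 name the mouse build mm10 and those numbered 1 to 3 name the human build GRCh38, although all files hold mouse genes; the study's methods name mm10. Nothing in the labels says that the libraries of a group are separate animals, and the study describes replicate single-cell experiments at each time as a gauge of variation between mice without tying a library to an animal, so p-values measure the spread between libraries, which may in part be technical.

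Granzymes are serine proteases best known from the granules of cytotoxic lymphocytes, which deliver them into target cells with the pore-forming protein perforin. The mouse holds a cluster of granzyme genes next to the mast cell chymase genes, and several of them, granzyme E among them, are known mainly from activated lymphocytes. Sfrp1 is a secreted inhibitor of Wnt signalling, Ptx3 is a pentraxin that binds microbes and hyaluronan-rich matrix, and Pi16 marks adventitial fibroblasts regarded as a reservoir population.

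The 7 granzymes of this cluster examined here lie in a row on the minus strand of chromosome 14 and are protein coding. Gzme itself occupies chr14:56117626-56120625 (GRCm38, the assembly behind mm10). Gzmd occupies chr14:56129556-56132608, Gzmc chr14:56231441-56234656 and Gzmb chr14:56258838-56262260. The promoters of 5 of them share most of their sequence, and those of Gzme, Gzmd and Gzmc are shown beside those of 2 neighbours that were nearly silent in the members, so that the shared and differing bases can be seen. The promoter of Gzmb, which was also found in the members, does not hold the shared stretch; its last 100 bases before the start stand at the end, without capitals. Each is a stretch of 100 bases read from the RefSeq promoter table of GRCm38.p6 on the minus strand, written 5′ to 3′, and the capitals mark the 8 bases at the place where Gzmc, Gzmf and Gzmg have the cyclic AMP response element TGACGTCA.
Gzme: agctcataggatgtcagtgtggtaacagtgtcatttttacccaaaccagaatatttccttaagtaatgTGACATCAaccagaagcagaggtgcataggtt
Gzmd: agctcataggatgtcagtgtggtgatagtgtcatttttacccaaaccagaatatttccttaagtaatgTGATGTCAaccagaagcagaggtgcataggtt
Gzmc: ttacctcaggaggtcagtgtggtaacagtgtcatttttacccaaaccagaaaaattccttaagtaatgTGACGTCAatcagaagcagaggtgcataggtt
Gzmf: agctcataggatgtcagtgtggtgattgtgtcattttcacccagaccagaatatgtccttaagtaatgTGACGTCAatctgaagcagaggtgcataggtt
Gzmg: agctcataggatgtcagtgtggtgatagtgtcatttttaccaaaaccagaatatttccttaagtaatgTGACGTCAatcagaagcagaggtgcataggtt
Gzmb: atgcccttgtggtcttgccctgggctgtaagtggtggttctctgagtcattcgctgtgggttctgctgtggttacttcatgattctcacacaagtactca
The windows are chr14:56120656-56120755 for Gzme, chr14:56132623-56132722 for Gzmd, chr14:56234683-56234782 for Gzmc, chr14:56211458-56211557 for Gzmf, chr14:56159625-56159724 for Gzmg and chr14:56262335-56262434 for Gzmb. Of the 100 bases of Gzme, 96 were identical in Gzmd, 95 in Gzmg, 91 in Gzmf and 89 in Gzmc. Counting from 1 at the first of the capital letters, the Gzme promoter carries G5A and the Gzmd promoter C4T against TGACGTCA. Over the 250 bases before the start, read on both strands, TGACGTCA occurred in 1.55% of 32851 RefSeq promoters. The letters TGTGGT, the core bound by Runx factors, occurred upstream of 6 of the 7 granzymes (all but Gzmn) and in 14% of all promoters. TGANTCA, the AP-1 site, occurred upstream of 1, Gzmb, and in 6.75% of all promoters. These matches describe the letters and were not tested for a role.

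The transcripts are alike as well. The longest run of bases shared with the Gzme transcript was 96 bases for Gzmd, 90 for Gzmg, 68 for Gzmc, 62 for Gzmn, 49 for Gzmf and 26 for Gzmb. None of the 819 stretches of 98 bases, the length of the sequenced read, was shared between Gzme and another granzyme, although a read with a few errors could still be placed at a neighbour. Counts of Gzmd and Gzmg beside Gzme are uncertain to that extent.

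Members were found at day 7 with and without p7N3 and were nearly absent at day 21. At day 7 they made up 3.82%, 5.52%, 2.76% and 2.30% of the Pdgfra cells of the 4 libraries (33 of 863, 58 of 1051, 34 of 1234 and 20 of 870 cells). After p7N3 they made up 3.21%, 3.20%, 5.16% and 2.49% (25 of 778, 33 of 1031, 35 of 678 and 22 of 885 cells). The ranges of both conditions overlapped almost fully, and the library numbered 4 had the lowest share in both.

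At day 21 the shares were 0.166% (1 of 603 cells), 0% (0 of 324 cells, which allows a share of up to 0.926%), 0.336% (1 of 298) and 0.693% (5 of 722), so every day 21 library lay below every day 7 library. The mean share was 3.60% ± 1.43 at day 7 and 0.298% ± 0.296 at day 21 (SD, n = 4 libraries each), and a two-sided exact permutation test gave p = 0.0286, the smallest that 4 against 4 libraries allow, and 0.0571 after adjustment over the 2 share comparisons. At day 21, 23 Pdgfra cells had at least 2 Gzme UMIs, and only 7 of them had no Pi16 and were members. With cells of any Pi16 count let in, the mean share was 6.18% at day 7 and 1.11% at day 21. Under the rule itself, the mean with p7N3 was 3.52% ± 1.15 (n = 4), a difference of -0.0836 percentage points from day 7 (exact permutation p = 0.943). The sign of this difference changed when cells with any Pi16 count were let in, when Gzme had to reach 5 UMIs and when 1 of several libraries was left out. Within the libraries numbered 1 to 3 the difference was -0.174 points for p7N3 and -3.87 points for day 21, where 3 against 3 libraries cannot reach p below 0.1.

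**Figure D1:**
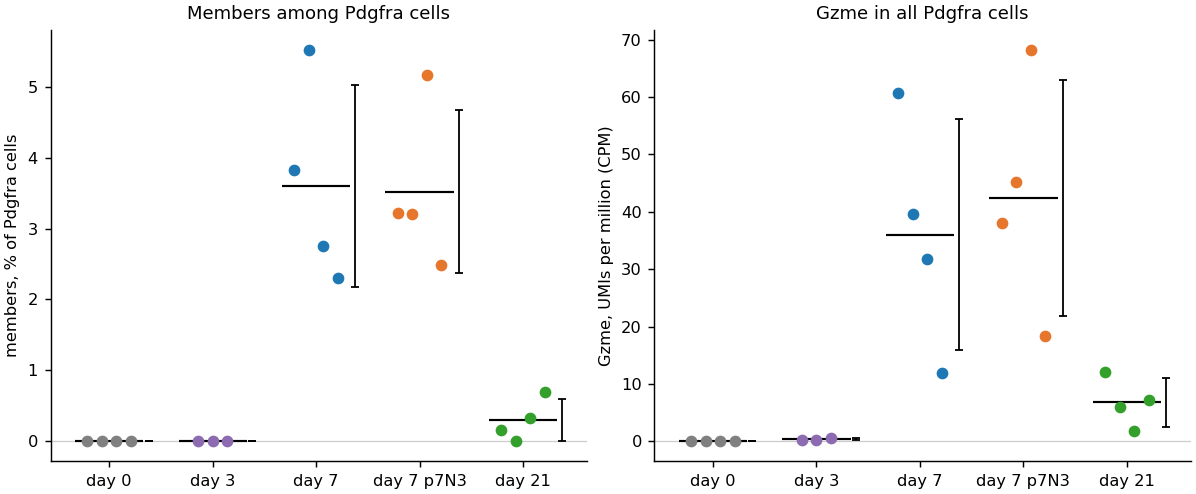
Left, members as a percent of Pdgfra cells; right, Gzme in all Pdgfra cells in CPM. Each point is 1 library, the line is the group mean and the bar beside it the SD. The day 7 and day 7 p7N3 points spread over the same range, from 2.30% to 5.52%, day 21 stays below 0.7% and day 0 and day 3 hold no member.

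The level of Gzme summed over all Pdgfra cells, which does not depend on the cutoff of 2 UMIs, was also lowest at day 21 of the injured times from day 7 on. It was 60.7, 39.6, 31.8 and 12.0 CPM, UMIs scaled to a common library total, in the day 7 libraries, 38.1, 45.2, 68.2 and 18.3 CPM with p7N3, and 12.1, 6.03, 1.86 and 7.21 CPM at day 21. At day 3 it was 0.254, 0.268 and 0.566 CPM, and no Gzme UMI was found in the 4 day 0 libraries, in which 974 Pdgfra cells were measured. Day 7 and p7N3 overlapped throughout, and the lowest day 7 library lay just under the highest day 21 library.

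Between day 21 and day 7 the log2 fold change of Gzme in Pdgfra cells was -2.23 (SE 0.54, adjusted p = 0.0059, edgeR quasi-likelihood test), and it lay between -2.66 and -1.86 when any single library was left out. This comparison called 37.6% of 13510 genes at an adjusted p under 0.05, so a call was common in it. Between p7N3 and day 7 the log2 fold change was 0.23 (SE 0.45, adjusted p = 0.86), against a background of 0.0444% of genes called. It turned negative without p7N3 replicate 3 (-0.09) or without day 7 replicate 4 (-0.06).

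Gzme was unevenly spread within the population. The median member had 4 Gzme UMIs (quartiles 2 and 9) and the highest had 74. Exactly 2 UMIs were counted in 74 members, 3 in 27, 4 to 9 in 102 and 10 or more in 64, and those 64 cells held 63.0% of the members' 2145 Gzme UMIs. No UMI of another granzyme of the cluster was seen in 73 members, while 81 had both Gzmc and Gzmd.

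The neighbouring granzymes Gzmd, Gzmc and Gzmb accompanied Gzme. Gzmd averaged 140 CPM ± 63.4 in the members and 1.69 ± 0.731 in the comparison cells (SD, n = 8 day 7 and p7N3 libraries). Gzmc averaged 114 CPM ± 54.5 against 5.73 ± 1.34. Gzmb averaged 74.1 CPM ± 45.8 against 3.36 ± 1.90. Each of the 3 was higher in the members in 8 of 8 libraries, with no overlap between the sets of libraries.

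By library, Gzmd in the members was 182, 104, 158 and 62.3 CPM at day 7 and 240, 177, 143 and 55.2 CPM with p7N3. Gzmb was 85.5, 25.9, 116 and 47.9 CPM at day 7 and 158, 74.5, 64.7 and 21.2 CPM with p7N3. The p7N3 library numbered 4 had the lowest Gzmd and Gzmb of its group, and day 7 replicate 4 the lowest Gzmd of its own. The remaining genes of the cluster were almost silent: over the 12 libraries the members held 18 UMIs of Gzmn, 5 of Gzmf and 3 of Gzmg, against 329 of Gzmb, 529 of Gzmc and 648 of Gzmd, so the promoters of Gzmf and Gzmg printed above belong to genes with 5 and 3 UMIs in these cells.

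**Figure D2:**
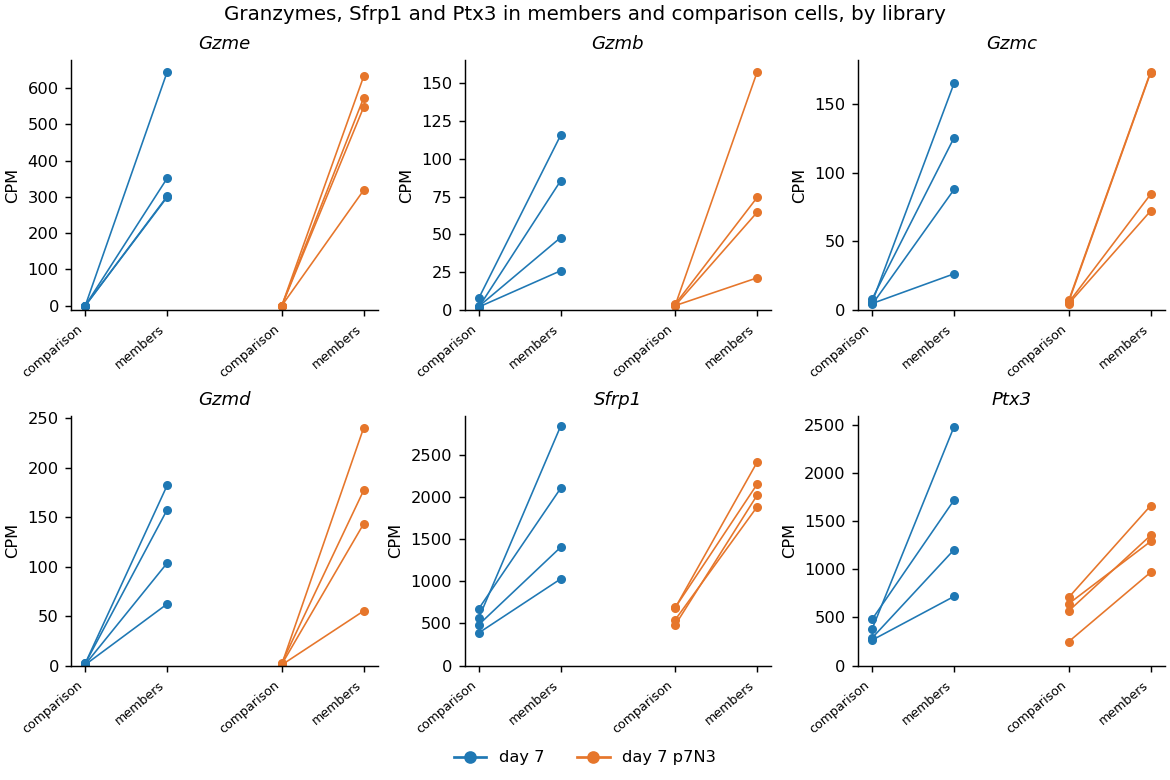
Gzme, Gzmb, Gzmc, Gzmd, Sfrp1 and Ptx3 in CPM; each line joins the comparison cells and the members of 1 library, day 7 in blue and day 7 p7N3 in orange. Gzme is 0 in comparison cells by selection, and every line of the other genes rises towards the members.

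Sfrp1 and Ptx3 were high in both sets and higher in the members. Sfrp1 was 2840, 1028, 2103 and 1404 CPM in the members of the day 7 libraries and 2022, 2152, 2414 and 1884 CPM with p7N3, and averaged 565 CPM ± 112 in the comparison cells. Ptx3 averaged 1423 CPM ± 539 in the members against 448 ± 179 (n = 8). Both were lowest in the members of day 7 replicate 2 among the day 7 libraries, which also held the most members. A UMI of Sfrp1 was found in 97.4% of members and 74.8% of comparison cells, and of Ptx3 in 90.3% and 55.0%. These percentages cover the 12 libraries, day 21 included. Comparison cells that clustered with most members had more of both than comparison cells at large, as given with the clusters.

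The pooled level of these genes was higher in cells with more Gzme UMIs, also across the cutoff, though not at every step. Over the 12 libraries, Gzmc was at 19.6 CPM in the 204 Pi16-negative cells with a single Gzme UMI, just outside the rule, at 73.9 in the 74 members with exactly 2, and at 156 in the 64 members with 10 or more. Gzmd was at 23.7 CPM with a single Gzme UMI, 42.3 with 2 and 306 with 10 or more. Sfrp1 was at 931 CPM, 1426 and 2280 over the same steps. These pools mix libraries that differ in these genes. Day 7 replicate 2, with the lowest Sfrp1, held 52 of the 204 cells with a single Gzme UMI and 11 of the 64 with 10 or more. The part of this mix was not tested. The median cell with a single Gzme UMI had 16790 UMIs in all and the median member with 2 had 16150, so the total depth was similar on both sides of the cutoff.

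Cells with Gzme that were kept out for carrying Pi16 resembled the members in these genes. The 109 cells with at least 2 Gzme UMIs and exactly 1 of Pi16 had 118 CPM of Gzmc, 105 of Gzmd and 2075 of Sfrp1, and the 119 with more Pi16 had 101, 105 and 2233. Together they held 2296 of the 6303 Gzme UMIs of the 12 libraries (36.4%), slightly more than the members (34.0%).

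**Figure D3:**
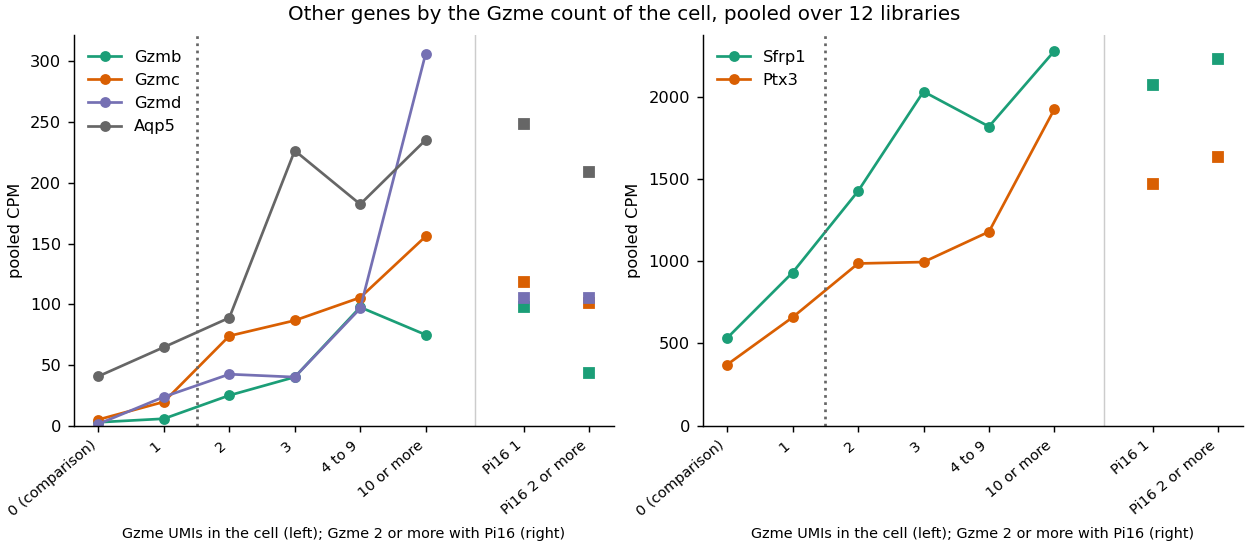
Pooled level (CPM over the 12 libraries) of Gzmb, Gzmc, Gzmd and Aqp5 (left) and of Sfrp1 and Ptx3 (right) by the number of Gzme UMIs in the cell; squares are cells with at least 2 Gzme UMIs that carry Pi16. The dotted line is the cutoff of the rule, and each gene except Gzmb is highest among the members in those with 10 or more UMIs, where Gzmd reaches 306 CPM.

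Several defining genes of cytotoxic lymphocytes were not found in the members. Prf1, which encodes perforin, was at 0 in all 267 members, as were Cd3e and Cd3g of the T cell receptor complex, Ncr1 of natural killer cells, Gzmk, Fasl and the mast cell genes Cpa3 and Kit. The rule allows at most 1 UMI of Ptprc, which by itself limits leukocytes in both sets. Prf1 had only 3 UMIs in all comparison cells, so its absence from the far fewer members tells little. Gzma had 3 UMIs in 3 members and 85 in 58 comparison cells. Gzmb, by contrast, had 329 UMIs in 70 members, Nkg7, a granule gene of T and NK cells, 3 UMIs in 3 members and Cd3d 1 UMI. Of the 12 measured T and NK cell markers, 9 had a UMI in the members of the 8 libraries, 50 UMIs in all; they summed to 11.3 CPM ± 7.91 in the members and 17.8 ± 6.03 in the comparison cells (n = 8), with Ccl5 the most abundant. At least 1 UMI of this list was seen in 39 members (14.6%) and in 13.1% of comparison cells, and 2 or more of its genes in 10 members (3.75%) and in 1.01% of comparison cells. Without the cells that held such a UMI, 1289 genes were called between the sets, against 1444 with them.

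Gzme UMIs were also found in cells outside the Pdgfra gate. The part of free RNA and mixed droplets in them was not tested. Of 12057 macrophage-like cells (no Pdgfra, at least 5 of 10 macrophage markers and at most 1 T or NK marker), 1.19% had a Gzme UMI at a median of 5708 UMIs per cell and 46 had at least 2, against 9.23% of the Pdgfra cells at a median of 15220 UMIs. Of 266 lymphocyte-like cells (no Pdgfra, at least 1 UMI of Ptprc and 3 T or NK markers), 4 had one. Of all Gzme UMIs, the macrophage-like cells held 6.5% (410 UMIs), the lymphocyte-like cells 0.063%, and cells outside the Pdgfra gate and both classes 17.2%. The share in Pdgfra cells was thus above that in the other classes, which are also shallower.

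Of the 170 cells with at least 2 Gzme UMIs outside the Pdgfra gate, 159 had no Pdgfra UMI, at most 1 of Ptprc and at least 5 of Col1a1, and 44 of these 159 also met the definition of macrophage-like cells. The other 115 carried Col1a1 without being macrophage-like. Within the members the fibroblast list was at the level of the comparison cells: its 11 genes other than Pdgfra summed to 58964 CPM ± 5793 against 57080 ± 5685. Col1a1 was the most abundant gene of this sum.

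Beyond the granzymes, 1444 of 12134 genes (11.9%) differed between members and comparison cells at an adjusted p under 0.05, 595 of them higher (4.9%) and 849 lower (7.0%). The fit paired the members of each of the 8 day 7 and p7N3 libraries with the comparison cells of the same library, and the median log2 fold change over all genes was -0.04. Comparison cells included cells with Pi16 and were somewhat shallower, with a median of 10531 to 19441 UMIs per library against 15732 to 20424 in the members. With comparison cells matched on total UMIs 746 of 8710 genes were called, and with Pi16 at 0 in both sets 1519 genes were. These calls describe genes that went with Gzme in cells picked for Gzme. Of the 11 fibroblast markers, Lum and Fstl1 were higher (log2 fold changes of 0.40 and 0.32), Thy1, a surface protein of many fibroblasts, was lower (-1.22, in 8 of 8 libraries) and 8 did not pass.

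Among the genes most raised in the members were a pair of water channels, alkaline phosphatase and the vitamin D receptor. For Aqp5, Brinp1 and Alpl the difference was smaller against comparison cells of the cluster that held most members, as given with the clusters. Brinp1, a gene best known from neurons, was at 60.8 CPM ± 31.7 against 8.95 ± 2.79 (log2 fold change 2.71, SE 0.17, adjusted p = 1.55e-09). Aqp5, a water channel of glands and lung, was at 187 CPM ± 85.6 against 30.3 ± 9.34 (log2 fold change 2.56), and Aqp2, the vasopressin-regulated channel of the kidney collecting duct, at 220 CPM ± 103 against 46.2 ± 18.1 (2.20). Both were higher in 8 of 8 libraries, as the choice of the most raised genes required. For neither did the ranges of members and comparison cells meet.

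Alpl, the tissue-nonspecific alkaline phosphatase that frees phosphate for mineralization, was at 59.5, 19.2, 31.8 and 4.79 CPM in the members at day 7 and 20.2, 8.28, 8.74 and 36.1 CPM with p7N3, against an average of 4.02 CPM in the comparison cells (log2 fold change 2.44, SE 0.26). Its spread over libraries was wide, and day 7 replicate 4 lay within the range of the comparison cells of other libraries. Vdr, the vitamin D receptor, was 2.01 log2 units higher and was at 3.38 CPM in day 7 replicate 2 against 66.9 CPM in replicate 1. Col9a2, a chain of cartilage collagen IX, was 2.11 log2 units higher.

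Camk4, a calcium-dependent kinase, was at 120 CPM ± 33.7 against 26.3 ± 4.22 (log2 fold change 2.17). Cpxm2, a carboxypeptidase-like secreted protein, was at 242 CPM ± 89.4 against 61.4 ± 15.8 (1.95), and Pappa, the metalloprotease that cleaves IGF-binding protein 4, was 1.87 log2 units higher. Sbspon, Cd24a and Smoc1 completed the 12 most raised genes with log2 fold changes of 2.21, 2.13 and 1.91. Each of the 12 passed in every alternative in which it could be fitted.

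Among the genes most lowered were the chemokine Ccl11 and several secreted matrix and matrix-binding proteins. Ccl11, the eosinophil attractant eotaxin, had 2 UMIs in all members of the 8 libraries and 3621 in the comparison cells, a level 79.5-fold lower (95% counting interval 22.0 to 657). Its fitted log2 fold change was -8.16, and -4.22 with any Pi16 count, and lay between -10.99 and -2.90 over the alternatives. Clec3b, which encodes the plasminogen-binding tetranectin, was at 5.03 to 32.7 CPM in the members and 192 to 606 CPM in the comparison cells (log2 fold change -4.27, SE 0.24, adjusted p = 2.35e-10), without overlap. With Pi16 at 0 in both sets the fold change of Clec3b was -2.53, still past the threshold.

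Sfrp4, a relative of Sfrp1 that moved the other way, was at 17.9 CPM ± 16 against 178 ± 96 (log2 fold change -3.34, and -2.15 with Pi16 at 0 in both sets). Tnxb, the tenascin of elastic connective tissue, and Itih5, a hyaluronan-binding inhibitor, had log2 fold changes of -3.91 and -3.35, which were -2.23 and -2.24 with Pi16 at 0 in both sets and kept their calls. Those of Kera and Col15a1, a corneal and tendon proteoglycan and a basement membrane collagen, were -3.27 and -2.88. Angptl7 had a log2 fold change of -3.73 and lost its call without the library block.

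**Figure D4:**
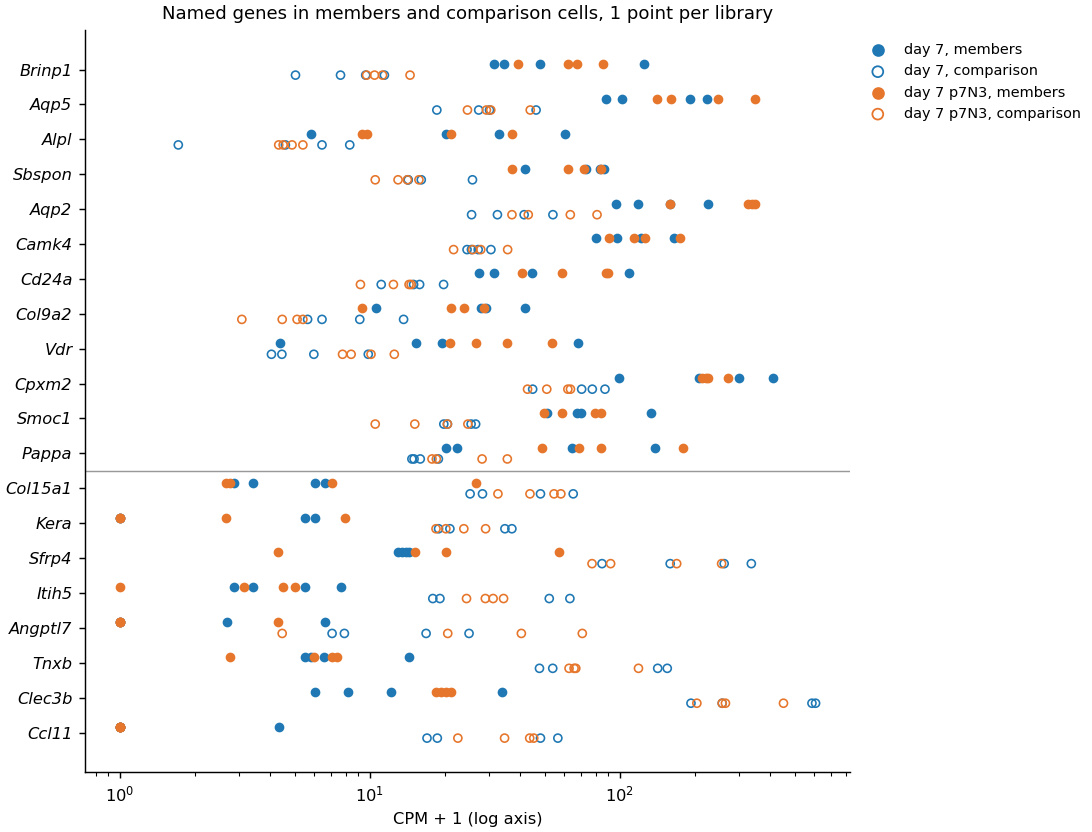
The 12 genes most raised (top) and the 8 most lowered (bottom) in the members, as CPM + 1 on a log axis, 1 point per library; filled points are members, open points comparison cells, blue day 7 and orange day 7 p7N3. For Aqp5, Aqp2, Camk4, Clec3b and Ccl11 the filled and open points do not overlap, and for Vdr and Alpl they do.

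Part of the chondrogenic and osteoblast genes were higher in the members. Of 9 chondrocyte and cartilage genes that could be tested, 5 were higher, none lower and 4 did not pass (median log2 fold change 0.81, against -0.04 for all genes). Sox9, the master regulator of cartilage, was at 122 CPM ± 29.2 against 68.7 ± 8.53 (log2 fold change 0.81, adjusted p = 8.68e-05) and higher in 8 of 8 libraries; it was close in members and comparison cells of the same cluster, as given with the clusters. Acan and Comp, the aggrecan core protein and a cartilage and tendon matrix protein, were 1.24 and 0.87 log2 units higher, and Col9a1 and Col11a1, cartilage collagens, 2.07 and 1.08.

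Acan was lower in the members of day 7 replicate 4 alone, at 83.8 CPM against 95 in its comparison cells. Col2a1, the principal collagen of cartilage, was seen in 17 members. Of 6 osteoblast and mineralization genes, Runx2, the osteoblast master regulator, was higher (58.5 CPM ± 11.9 against 32.0 ± 4.09, log2 fold change 0.87, 8 of 8 libraries, with a smaller difference in the cluster that held most members), as was Alpl. Sparc, or osteonectin, was higher by 0.16 on the log2 scale, a call that was lost in most alternatives. Bglap, or osteocalcin, had no UMI in the members and 369 in the comparison cells, at least 5.40-fold lower (3 counts over the members as the floor).

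The fibroblast states moved in different directions. Of 13 genes of activated fibroblasts, Tnc, Col12a1 and Postn, matrix proteins of healing tissue, were higher by 0.62, 0.54 and 0.40 on the log2 scale, whereas Lrrc15 (-1.03), Crabp1 (-2.36) and Acta2 (-1.60), the smooth muscle actin of myofibroblasts, were lower and 7 did not pass. Within the 2 clusters that held most members the difference in Acta2 was smaller, as given with the clusters. That in Lrrc15 was smaller in the first of them and went the other way in the second. Crabp1 was lower in 7 of 8 libraries, and the members of day 7 replicate 4 had 302 CPM against 173. The log2 fold change of Crabp1 lay between -4.10 and -1.25 over the alternatives, and its call was lost without the library block. That of Postn was lost with Gzme of at least 5 UMIs (0.25). Of 11 genes of resting fibroblasts, Smoc2 was higher (1.05), 5 were lower, among them Gsn (-1.26) and Clec3b, and 5 did not pass. With Pi16 at 0 in both sets the balance turned, with 5 higher and 2 lower of 9 tested.

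Of 10 adventitial genes other than Pi16, 9 were lower and Fn1 (0.49) was higher, but the rule removed Pi16-positive cells from the members and not from the comparison cells. With Pi16 at 0 in both sets 1 was lower and 1 higher of 9 tested: the calls of Ly6a, Cd55, Efhd1, Cd248 and Sema3c (-1.32, then -0.48) were lost, and Cd248 turned to 0.26, whereas Cd34 (-1.41, and -0.73 with Pi16 at 0) kept its call. Dpp4 had no UMI in the members and 529 in the comparison cells, at least 7.75-fold lower. Of 8 tenocyte genes, Tnmd was higher (0.49, in 6 of 8 libraries), a call lost in 6 alternatives, among them Pi16 at 0 in both sets (0.25) and matched UMIs (0.31), Kera was lower and 6 did not pass; Col1a1, the abundant chain of collagen I, did not pass and was at 18681 CPM in the members and 17461 CPM in the comparison cells.

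The Wnt list held both high and low inhibitors. Of 21 genes tested, Sfrp2, a secreted inhibitor like Sfrp1, was 1.17 log2 units higher (2085 CPM ± 836 against 899 ± 233) and the intracellular inhibitor Nkd1 0.88 higher. The ligands Wnt5a (-0.57) and Wnt9a (-1.09) and the inhibitor Sfrp4 were lower, and Wnt2 had 3 UMIs in the members against 685, 10.0-fold lower (counting interval 3.42 to 48.8); 15 did not pass. The calls of Wnt9a, Wnt5a and Nkd1 were lost in 10, 8 and 3 alternatives.

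Of 17 genes of the TGFβ and activin system, 4 were higher and 5 lower. Ltbp1, Ltbp3 and Ltbp2, latent TGFβ binding proteins, were 1.19, 0.85 and 0.80 log2 units higher and Tgfbr3, the coreceptor betaglycan, 0.44, whereas Tgfb2, Tgfbr2 (each -0.50), Inhba (-0.96), Inhbb (-1.58) and the induced matrix protein Tgfbi (-0.40) were lower; 8 of 17 did not pass. The calls of Inhba and Inhbb were each lost in 6 alternatives, that of Inhba among them with matched UMIs (-0.80, adjusted p = 0.18, edgeR), and those of Tgfb2, Tgfbr3 and Tgfbr2 in 3, 3 and 2, that of Tgfbr2 among them with Pi16 at 0 in both sets (-0.13). Of 15 BMP genes, none was higher and 5 were lower, among them the ligand Gdf10 (-3.58), the antagonist Chrd (-1.71) and the target Id1 (-1.84).

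Genes of the IGF axis differed in both directions. Igf1, the secreted growth factor, was at 1792 CPM ± 585 against 800 ± 213 (log2 fold change 1.14) and Igfbp4, a binding protein that Pappa cleaves, at 4844 CPM ± 1482 against 2048 ± 410 (1.21), both in 8 of 8 libraries. Igfbp6 (-2.21) and Igfbp3 (-1.23) were lower. Fgf7, Fgfr2 and Igf2 were higher by 0.82, 0.87 and 0.97, Pdgfa and Fgf18 were lower (-0.71 and -1.61), and 11 of the 20 genes of this list did not pass. The calls of Fgfr2 and Igf2 were lost in 2 and 1 alternatives. The call of Fgf18 was lost in 4, and with Pi16 at 0 in both sets its log2 fold change was -0.37 (adjusted p = 0.71, edgeR).

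Genes that act on granzymes or beside them were mixed. Of 10 granzyme and serine protease inhibitors, Slpi (1.09), Serpine2 (0.58), Serpinf1 (0.58) and Serping1 (0.42) were higher, Serpina3g (-1.66) was lower and 5 did not pass. The calls of Slpi and Serping1 were each lost in 2 alternatives, and that of Serpine2 with Gzme of at least 5 UMIs (0.36). Srgn, which encodes the proteoglycan serglycin that holds granzymes in granules, was at 190 CPM ± 169 against 93.4 ± 42.9 (log2 fold change 0.83), a call that was lost without the library block. Ctsc, the protease that activates granzymes, had a log2 fold change of -1.14 and was lower in 8 of 8 libraries.

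Of 28 extracellular proteases and inhibitors, Mmp2 (0.63) and Ctsb (0.39) were higher, 9 were lower, among them Mmp9 (-2.44) and the plasminogen activator Plat (-0.98), and 17 did not pass. Of 10 genes of the hyaluronan matrix other than Ptx3, the synthase Has2 was higher (0.75, in 6 of 8 libraries), a call lost without the library block. The synthase Has1 was lower (-1.38), a call lost with Pi16 at 0 in both sets and with matched UMIs. Hyal2 was higher by 0.53, a call lost in 10 alternatives, Itih5 and the receptor Cd44 (-0.40, a call lost in 4 alternatives) were lower and 5 did not pass.

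Inflammatory genes were lower or higher depending on the Pi16 of the comparison cells, and interferon genes were in part lower. Of 18 inflammatory mediators of stroma, Lcn2, the siderophore-binding lipocalin, was higher (88.3 CPM ± 70.4 against 29.4 ± 13.1, log2 fold change 1.49; within the cluster of most members the values were nearer, as given with the clusters) and 7 were lower, among them Il6 (-0.85), Il33 (-0.88), Csf1 (-0.96) and Ccl8 (-1.26). The call of Il6 was lost in 14 alternatives, among them matched UMIs (-0.16), and that of Il33 with Pi16 at 0 in both sets (-0.31) and with any Pi16 count. That of Ccl8 was also lost with any Pi16 count (-0.89). With Pi16 at 0 in both sets 5 mediators were higher and 4 lower of 17 tested. Of 15 interferon-stimulated genes, 7 were lower and none higher (5 lower with Pi16 at 0 in both sets and 2 of 10 tested with matched UMIs), with Ifi27l2a at 24.9 CPM ± 13.9 against 125 ± 51.6 (-2.35, and -1.29 with Pi16 at 0 in both sets). Usp18 kept its call in 9 of the 21 alternatives in which it could be fitted, and Ifit1 lost its call without the library block. Of 18 immediate early genes, which respond to dissociation, Atf3 was lower (-0.52) and 17 did not pass. The call of Atf3 was lost in 5 alternatives, among them Pi16 at 0 in both sets (-0.10), where 3 others of the list were higher, and matched UMIs (-0.18). Of 17 genes of hypoxia and glycolysis 4 were lower, but 1 by DESeq2 and 2 with RLE factors; the calls of Hk2, Pgk1 and Vegfa were lost in 18, 14 and 11 alternatives.

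Of 20 cell cycle genes, 10 were lower, among them Birc5 (-1.22) and Rrm2 (-1.33), and the cell cycle inhibitor Cdkn2b was higher (0.91, in 8 of 8 libraries), while Cdkn1a was lower (-1.40). Mki67 was seen in 22 members. The calls of Top2a, Ccnb1 and Pcna were lost with matched UMIs, when 3 genes of the list were lower. With Gzme of at least 1 UMI 2 were lower, and the calls of these 3, Birc5 and Rrm2 (-0.20) were lost. The summed level of the list was lower in the members in 7 of 8 libraries and higher in day 7 replicate 3, at 775 CPM against 591.

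Endothelial markers, and part of the pericyte and macrophage markers, were lower in the members than in the comparison cells. All 7 endothelial markers were lower, and 4 with Pi16 at 0 in both sets (summed level 15.4 CPM ± 7.87 against 66.4 ± 28.6, Esam most abundant in the members), 4 of 8 pericyte markers were (Rgs5, Myh11, Kcnj8 and Abcc9; summed level of the list 52.4 CPM ± 28.0 against 124 ± 34.0, with Des most abundant in the members and Rgs5 in the comparison cells; the calls of Myh11 and Kcnj8 were lost in 5 and 3 alternatives), and 6 of 10 macrophage markers were (470 CPM ± 156 against 838 ± 77.3, led by Lyz2). The calls of the macrophage markers other than Lyz2 were lost when Ptprc had to be 0 or UMIs were matched. Mast cell markers summed to 7.16 CPM ± 9.43 against 10.6 ± 4.92 and Schwann cell markers to 15.3 CPM ± 6.63 against 15.1 ± 4.97, with none called. The part of these cell types in the lower genes of the members was not tested.

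**Figure D5:**
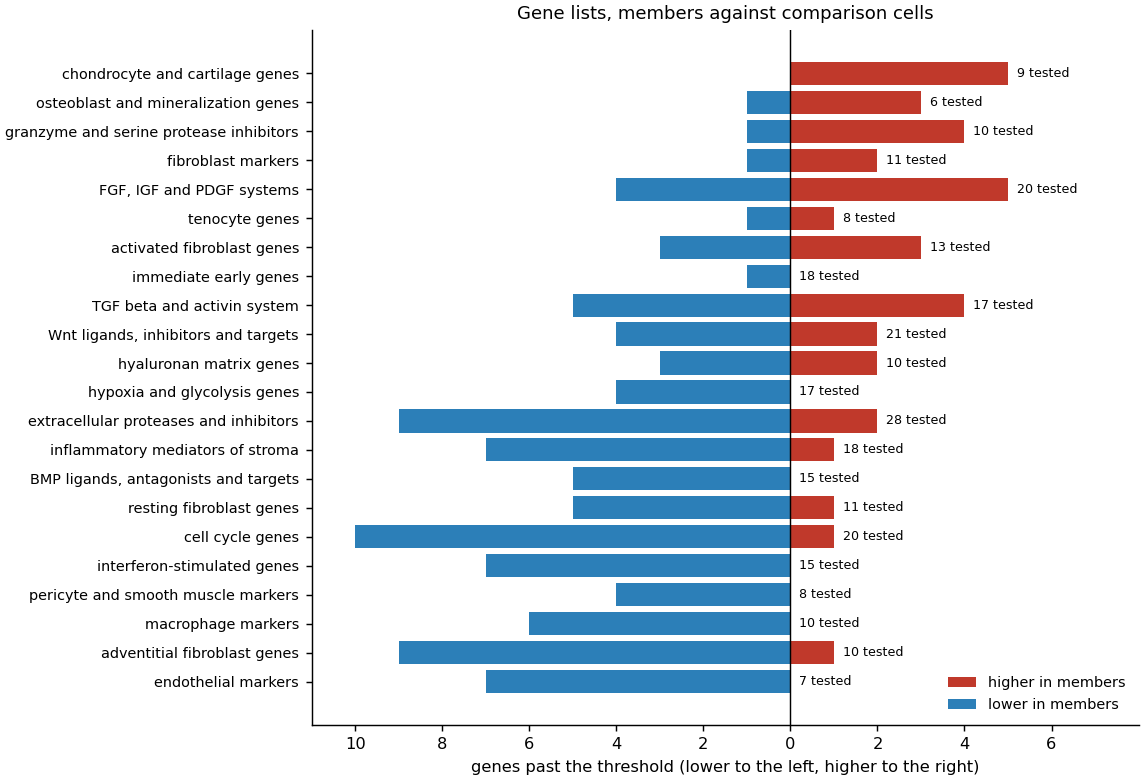
Number of genes of each list past the threshold, higher in the members to the right and lower to the left; the number tested stands beside each bar, for lists with at least 5 genes tested. Chondrocyte genes hold 5 higher and 0 lower of 9, endothelial markers 7 lower of 7, and immediate early genes 1 of 18.

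Members lay mainly in 1 cluster of the Pdgfra cells but not only there. When the 9337 cells were clustered without the granzymes and the genes of the rule, 148 members (55.4%) fell in 1 of 19 clusters, which held 1210 cells and was led by Gzme, Gzmc, Lcn2, Aqp5 and Chl1. Another 46 (17.2%) fell in a cluster led by C1qtnf3 and Scx, with Acan and Tnmd among its leading genes. The other 73 lay in 9 of the remaining 17 clusters, 20 of them in one led by Has1, Trib1 and Cxcl1, 11 in one led by skeletal muscle genes such as Myog and Acta1 and 13 in one led by mitotic genes. Of these 73, 4 lay in one led by S100a8 and S100a9, and 3 in one with Cd74, Lyz2 and C1qa among its leading genes. Doublets were left in. Of the 8475 comparison cells, 817 (9.64%) lay in the first cluster and 748 in the second.

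The share of members in the first cluster was 54.5%, 27.6%, 52.9% and 60.0% in the day 7 libraries and 48.0%, 81.8%, 88.6% and 59.1% with p7N3. Day 7 replicate 2 was the lowest. Of all Pdgfra cells, that cluster held 12.5%, 9.04%, 11.8% and 17.0% in the day 7 libraries and 14.5%, 22.2%, 27.7% and 18.8% with p7N3, again lowest in day 7 replicate 2 and highest in p7N3 replicate 3. At a coarser resolution the leading cluster held 59.2% of the members and at a finer one 32.6%.

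The members of the 2 clusters differed, and since the clusters were formed from the expression of the same cells the values are a description. Those in the first had 94.0 CPM of Gzmb, 2454 of Sfrp1, 1827 of Ptx3 and 138 of Lcn2, and those in the second had 5.99, 706, 302 and 2.4. The second had more of the tendon genes Scx (307 CPM against 23.0) and Tnmd (1018 against 166) and more Postn (7767 against 4162), while Acan (256 and 254) and Cpxm2 (273 and 245) were close.

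Set against comparison cells of the same cluster, pooled over libraries and with no test, members had more Gzmd in both, 168 CPM against 5.11 in the first and 67.1 against 2.83 in the second. These pools cover the 12 libraries, so the comparison cells include day 21 cells, while 7 members came from day 21. In the first cluster Sfrp1 was at 2454 CPM against 1529, Ptx3 at 1827 against 1115, Aqp5 at 268 against 118, Brinp1 at 73.6 against 31.7 and Alpl at 23.8 against 12.7, so its comparison cells also carried these genes. Outside both clusters Sfrp1 was at 1427 CPM against 413, Ptx3 at 936 against 296 and Aqp5 at 67.3 against 30.7. Brinp1 was there at 59.1 CPM against 5.38 and Alpl at 31.0 against 2.95. Sox9 was close, at 135 CPM against 126 in the first cluster and 98.2 against 102 in the second, and Runx2 was at 57.8 against 49.6 and at 39.5 against 27.1. Lcn2 was at 138 CPM against 104 in the first cluster and at 2.4 against 7.39 in the second. Acan (254 against 122) and Col9a1 (18.9 against 6.33) were higher in the members of the first cluster and lower in those of the second (256 against 350, and 8.38 against 12.7). Outside both clusters Acan was at 173 CPM against 99.2, Col9a1 at 2.96 against 9.96 and Comp at 123 against 230. There 1 cluster had 892 of its 1056 cells from day 21, and these values are not matched by library. Acta2 was at 152 CPM against 222 in the first cluster and 897 against 942 in the second, and Lrrc15 at 29.8 against 48.2 and 246 against 212. Aqp5 was at 67.1 CPM against 37.0 in the second cluster. Members and comparison cells were spread unequally over the clusters. The part of this spread in the differences in Sox9, Lcn2, Acta2 and Aqp5 over all cells was not tested. Its part in those of Sfrp1 and Ptx3, which were also wide outside both clusters, was not tested either.

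No gene passed the edgeR test between the members of the p7N3 libraries and those of day 7. Within the members, 0 of 5861 genes (0.0%) passed at an adjusted p under 0.05, 578 had an unadjusted p under 0.05, and DESeq2 called 6. Of the same 5861 genes, CPM of 155 were higher, and of 146 lower, in every p7N3 library than in every day 7 library. How many would separate so by chance was not computed. The log2 fold changes of Gzmb, Gzmc and Gzmd were 0.22 (SE 0.49), 0.29 (SE 0.39) and 0.27 (SE 0.36) with adjusted p-values of 0.92, 0.85 and 0.84, and these standard errors leave room for a change in either direction.

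The test of whether the contrast of members and comparison cells differed between p7N3 and day 7 called 0 of 12140 genes (0.0%), 491 had an unadjusted p under 0.05 and DESeq2 called 0. Scx, the tendon transcription factor, was at 26.8, 212, 174 and 83.0 CPM in the day 7 members and 43.6, 19.9, 63.4 and 41.9 CPM with p7N3 (log2 fold change -1.60, SE 0.49, adjusted p = 0.35), and is named here after its values were seen. The groups overlapped because day 7 replicate 1 was low. Members of the first cluster had 23.0 CPM of Scx and those of the second 307. The share of members in the first cluster was 27.6% to 60.0% in the day 7 libraries and 48.0% to 88.6% with p7N3, with overlap. This share was not tested between the groups, and its part in Scx was not tested. Members at day 21, 7 cells in all, were too few for such a fit.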

How the data were processed

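Per the labels and the study's methods, the authors prepared 10x Genomics 3′ libraries, aligned reads with Cell Ranger and deposited 19 matrices of UMI counts over 27998 genes. The study's own filter, 500 genes or more and no more than 25% of UMIs from mitochondrial genes, was applied to the barcodes, and doublets were left in (an alternative dropped the top Scrublet scores). Members and gene lists were chosen with earlier results of these data known. Counts were summed per library over the members and over the comparison cells where both had at least 10 cells, which left the 8 day 7 and p7N3 libraries (425237 to 917374 UMIs in the members and 9633452 to 16359494 in the comparison cells). These sums were tested with edgeR 4.0.16 (quasi-likelihood, TMM factors, filterByExpr, library as a block, mean of the day 7 and p7N3 coefficients, Benjamini-Hochberg over all genes), with DESeq2 1.42.0 as an alternative. CPM are scaled by TMM factors in that comparison and pooled or per library sums elsewhere. Genes named were the granzymes of chromosome 14, the genes of the rule, the 12 most raised and 8 most lowered genes with an adjusted p under 0.05, one direction in every library and at least 20 CPM, and members of the lists. Shares were compared by exact permutation over libraries, and a share of 0 was given the upper limit that 3 counts allow; limits and counting intervals cover counting error only. Clusters came from Leiden (scanpy 1.11.5) on 2000 variable genes and 30 components at resolution 0.8. The code was tested on simulated counts. Barcodes shared between libraries numbered 975, at most 22 between any 2 of them, and 18 members carried one; no 2 libraries of a group agreed within sampling noise (chi-square per degree of freedom 8.8 or more).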

Additional observations from a re-analysis of the deposited data

Results flagged for a closer look

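Of 58 groups of 4 libraries examined, 4 held a library whose distance from the nearest other was large for its group, where chance gives about 1 in 20. Aqp2 in the members was at 157 CPM in p7N3 replicate 4, whereas the other 3 p7N3 libraries lay between 324 and 348 CPM. Tnxb in the members was at 13.4 CPM in 1 day 7 library. Ccl11 was at 3.35 CPM in the members of 1 day 7 library and Angptl7 at 3.31 CPM in those of 1 p7N3 library, with the other libraries of each group at 0; for Ccl11 this was 2 UMIs.

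The day 3 libraries, which the comparisons do not use, held 15 Gzme UMIs in all cells, where the day 0 libraries held 0. Of the 15, 8 were in Pdgfra cells, 2 of them in a cell with Pi16.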

How the results depend on the processing

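The number of genes called between members and comparison cells was 1444 and moved to 736 with at least 10 UMIs in every library sum, where only 3916 genes were tested instead of 12134, 923 with Gzme of at least 5 UMIs and 746 with comparison cells matched on total UMIs; leaving out 1 library gave 1067 to 1433. The difference of the member contrast between p7N3 and day 7 called 0 genes and 37 without the filter on low counts, 2 with Gzme of at least 1 UMI, 11 with at least 5, 1 with matched cells, 1 without cells holding a T or NK marker UMI, and 0 to 4 without 1 library (4 without day 7 replicate 1). Within the members p7N3 against day 7 called 0 genes, 6 by DESeq2, 131 without the filter and 0 to 26 without 1 library (26 without day 7 replicate 1).

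The share of members in p7N3 against day 7 changed sign to 0.343 points with Gzme of at least 5 UMIs, 0.734 with any Pi16 count, 0.222 after thinning to 3000 UMIs, and ranged from -0.632 to 0.556 without 1 library. Gzme in all Pdgfra cells ranged from -0.086 to 0.599 without 1 library for p7N3 and from -2.66 to -1.86 for day 21. The share at day 21 ranged from -3.73 to -2.66 points. Cd248 turned to 0.26 with Pi16 at 0 in both sets. Within the members, Gzmb turned to -0.19 with Ptprc at 0, and ranged from -0.33 to 0.607 without 1 library, Gzmc turned to -0.021 with any Pi16 count, and Gzmd to -0.347 without cells holding a T or NK marker UMI, and ranged from -0.026 to 0.538 without 1 library. The causes were not tested.

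The labels number the libraries, but same-numbered libraries of day 7 and p7N3 correlated in their deviations by only 0.12, 0.02, 0.11 and 0.19 and those of day 7 and day 21 by -0.07, -0.22, 0.0048 and 0.35, so not every pair exceeded 0.1 and the numbers were not taken to pair the libraries, although those numbered 4 share a build label of their own. With a replicate block the calls within the members stayed at 0, and the share at day 21 had the smallest exact p that 4 pairs allow, 0.25 after adjustment. Cells with T or NK marker UMIs, cells with any Pi16 and the libraries numbered 1 to 3 were set apart after seeing the data; the last gave 1056 genes between members and comparison cells. Contrasts of day 21 members could not be fitted, since no day 21 library had 10 members.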
